A study of Mus musculus with 11 samples.

Results

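The genes of coenzyme Q synthesis were followed in adipocytes of the mouse 3T3-L1 line, preadipocytes that are differentiated into fat cells in culture. The set held 10 of the 18193 genes named on the array: Pdss2, Coq2, Coq3, Coq4, Coq5, Coq6, Coq7, Coq9, Coq10a and Coq10b. Every probe set of the array whose platform annotation gave exactly 1 of these symbols was taken, which gave 19 of 45101 probe sets. Of these, 15 lay at or above the limit for dim probe sets, and each of the 10 genes had at least 1 of them. The 11 Affymetrix arrays formed 4 groups, each of differentiated adipocytes processed on the same day after differentiation. Control cells (n = 3) were labelled as having no treatment. Chronic insulin cells (CI, n = 2) received 10 nM insulin in 4 additions over 1 day and the next morning. TNF cells (n = 3) were kept with 2 ng/ml of the inflammatory cytokine tumour necrosis factor alpha for 4 days. DEX cells (n = 3) were kept with 20 nM dexamethasone, a synthetic glucocorticoid, for 8 days in an ethanol carrier of 0.01%. Whether the control cells received that carrier is unclear from the labels, which present all the treatments as models of insulin resistance. All values come from 1 cell line.

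Coenzyme Q, or ubiquinone, is a lipid of the inner mitochondrial membrane that carries electrons from complexes I and II and from several other dehydrogenases to complex III. It is made from a ring that derives from tyrosine and a long prenyl side chain that derives from the mevalonate pathway. After the ring and the chain are joined in the membrane, a group of enzymes held together as a complex on its matrix side modifies the ring. In its reduced form coenzyme Q is also a lipid antioxidant, and its level in adipocyte mitochondria has been studied in relation to insulin resistance.

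The arrays of a group had rank correlations of 0.996 to 0.9977, and their medians ran from 124.5 to 129.5 intensity units over all arrays. Adipoq and Fabp4, markers of mature adipocytes, lay at 20816 or more on every array. No label says that the experimental replicates were grown as separate cultures. The p-values therefore measure the spread among these samples alone, and it may be technical. The 18 probe sets of the hybridization spikes were lower than in control for 18 in CI, 18 in TNF and 17 in DEX, with median log2 differences of -0.23, -0.07 and -0.05. Their part in the results was not tested. In bulk cultures fewer cells of a type and less RNA per cell cannot be told apart.

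In TNF 9 of the 10 genes fell against control, while in CI 7 and in DEX 5 of the 10 did not pass. Log2 fold changes were computed on log2(intensity + 16) and tested with limma over 15625 genes, with 1 probe set per gene, the brightest. The threshold for a call was an adjusted p (Benjamini-Hochberg) under 0.05. In TNF 9 members were lower and 0 higher than in control, where 11.2% of all tested genes were lower and 13.9% were higher. Every TNF array was below every control array for these 9, as for 21.3% of all tested genes. The median log2 fold change of the members was -0.29, against -0.01 over all tested genes. In CI 2 members rose and 1 fell, against 8.37% and 8.86% of all genes, and the members' median was 0.03, against 0.01 over all genes. In CI the number that fell is near its share and the number that rose is above it, a difference that was not tested. Both CI arrays were above control for 3 members and below it for 2, against 24.0% and 22.0% of all genes. In DEX 3 rose and 2 fell, against 14.0% and 13.6%, with a median of 0.06, against 0.02 over all genes. The number that fell is near its share. All DEX arrays were above control for 3 members and below it for 2, against 21.8% and 18.7%. The 3 comparisons share the control arrays.

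**Figure D1:**
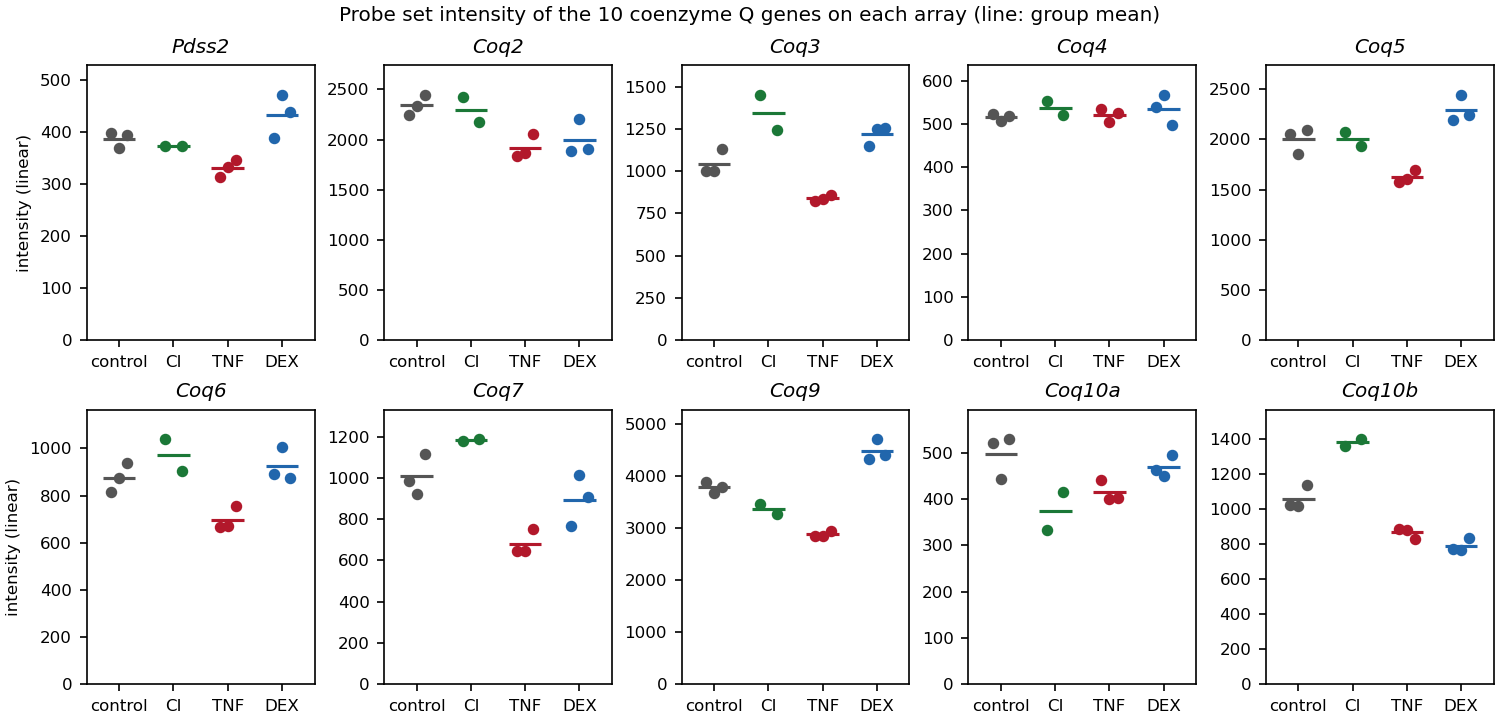
Linear intensity of the brightest probe set of each of the 10 coenzyme Q genes on every array, with 1 panel per gene, 1 point per array and a line at the group mean; each axis starts at 0. In 9 panels the 3 TNF points lie below all 3 control points, and in the Coq4 panel the groups overlap.

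The windows before the start sites of Coq7 and Coq9, which had the largest decreases in TNF, and of Coq4, which did not pass in any comparison, are printed to show the promoters of members that moved and of 1 that did not. Each is the 250 bases before the RefSeq start (build GRCm38.p6), written from 5′ to 3′ on the gene's strand, with matches to the motifs below in capitals. Coq7 is at chr7:118533357-118533606 on the minus strand, Coq9 at chr8:94838163-94838412 on the plus strand and Coq4 at chr2:29787243-29787492 on the plus strand.
Coq7: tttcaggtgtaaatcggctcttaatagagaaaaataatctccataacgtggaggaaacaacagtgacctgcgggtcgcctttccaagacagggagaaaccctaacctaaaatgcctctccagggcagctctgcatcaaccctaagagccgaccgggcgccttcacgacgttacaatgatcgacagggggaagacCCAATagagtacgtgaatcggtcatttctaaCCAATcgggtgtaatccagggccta
Coq9: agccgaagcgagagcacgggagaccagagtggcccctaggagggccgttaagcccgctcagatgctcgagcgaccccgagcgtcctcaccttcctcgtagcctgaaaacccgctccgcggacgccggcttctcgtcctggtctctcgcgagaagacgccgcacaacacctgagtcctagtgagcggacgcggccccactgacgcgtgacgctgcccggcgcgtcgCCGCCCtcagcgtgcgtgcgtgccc
Coq4: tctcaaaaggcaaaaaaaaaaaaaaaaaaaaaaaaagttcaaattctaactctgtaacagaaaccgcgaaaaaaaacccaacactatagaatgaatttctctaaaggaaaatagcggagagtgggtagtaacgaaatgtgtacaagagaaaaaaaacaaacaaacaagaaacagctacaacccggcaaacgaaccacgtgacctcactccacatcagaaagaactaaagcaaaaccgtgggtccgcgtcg

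On both strands of these windows 10 motifs were searched: TCAAGGTCA (ERR), CCGGAAGT (GABPA), GGGCGG (SP1), AAGATGGC (YY1), TGACGTCA (CRE), CCAAT, and the longer NRF1, NF-kappaB, glucocorticoid and SREBP elements. A RefSeq window was at hand for 9 members (11 windows), and Coq5 had none. The SP1 letters were found in Pdss2, Coq3, Coq6 and Coq9, and in 32.7% of all 32851 windows. The CCAAT letters were found in Coq6, Coq7 and Coq10b, and in 33.8% of all windows. In Coq6 a match to CCAAT overlapped the SP1 match. In Coq7 CCAAT stood at 56 to 52 and at 25 to 21 bases before the start, and in Coq9 the SP1 letters stood at 25 to 20 bases before it on the other strand. The others matched in no member's window, and over all windows their shares ran from 0.00913% (glucocorticoid) to 3.74% (NRF1). The Coq4 window held no match and had 37.2% G and C, against 49.6% in Coq7, 69.2% in Coq9 and a median of 52.4% over all windows. A window without a match was not particular to Coq4. The Coq2 window (54.8% G and C) and both Coq10a windows (62% and 43.6%) held none either, and both genes fell in TNF.

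Pdss2 and Coq2 act on the side chain. Pdss2 is a subunit of the synthase that builds the prenyl chain, and Coq2 is the transferase that joins the chain to the ring. Pdss2 lay at 397.2, 368.7 and 394.9 in control, at 313.1, 333.3 and 345.1 in TNF, at 372.5 and 373.9 in CI, and at 387.7, 471.7 and 438.1 in DEX. The TNF arrays were all below control, and the CI and DEX arrays overlapped it. Pdss2 fell in TNF by 0.22 on the log2 scale (SE 0.068, adjusted p = 0.0284, limma), and the call was lost in 5 of 21 alternative analyses (adjusted p from 0.0100 to 0.115). These were the mean of all probe sets and the fits without control replicate 1 or 3 or TNF replicate 1 or 2. It did not pass in CI (-0.05, adjusted p = 0.733) or DEX (0.15, adjusted p = 0.115), though the DEX value passed without DEX replicate 1 (0.0201 to 0.683 over all alternatives).

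Coq2 lay at 2242, 2334 and 2448 in control and at 1833, 1866 and 2051 in TNF. The CI arrays were at 2421 and 2172, and the DEX arrays at 1889, 2204 and 1906. All TNF and all DEX arrays were below control, while 1 CI array lay within the control range and the other below it. Coq2 fell by 0.29 in TNF (SE 0.071, adjusted p = 0.00850, limma) and by 0.23 in DEX (SE 0.071, adjusted p = 0.0267). The DEX call was lost without control replicate 2 or 3 or DEX replicate 1 or 3 (adjusted p over all alternatives from 0.00525 to 0.103), while the TNF call held in all 21.

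Coq6, Coq3, Coq5 and Coq7 encode enzymes that modify the ring. Coq6 is a flavin-dependent monooxygenase that adds a hydroxyl group. It lay at 816.2, 875.5 and 936.7 in control, at 667.1, 671.5 and 757.5 in TNF, at 1041 and 904.2 in CI and at 891.7, 1006 and 873.5 in DEX. Only the TNF arrays were apart from control, all below it. Coq6 fell by 0.32 in TNF (SE 0.077, adjusted p = 0.00677, limma) and did not pass in CI (0.15, adjusted p = 0.289) or DEX (0.07, adjusted p = 0.522).

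Coq3, the methyltransferase of the ring's oxygen atoms, differed from control in all 3 treatments. Its brighter probe set lay at 1002, 1003 and 1129 in control, 825.3, 837.5 and 857.4 in TNF, 1453 and 1241 in CI, and 1152, 1252 and 1258 in DEX. Every TNF array was below, and every CI and DEX array above, all control arrays. Coq3 fell by 0.31 in TNF (SE 0.068, adjusted p = 0.00408, limma), rose by 0.36 in CI (SE 0.076, adjusted p = 0.00453) and rose by 0.22 in DEX (SE 0.068, adjusted p = 0.0244). Without CI replicate 1 the CI value was 0.25 and did not pass (adjusted p over all alternatives from 0.00249 to 0.0986). The DEX call was lost without control replicate 1 or 2 or DEX replicate 2 or 3 (0.00265 to 0.0967).

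Coq5, the methyltransferase that adds a carbon-bound methyl group to the ring, lay at 2056, 1858 and 2089.9 in control. The TNF arrays were at 1579, 1600.3 and 1698, the CI arrays at 2070.0 and 1939 and the DEX arrays at 2195, 2446 and 2242. The TNF arrays were all below and the DEX arrays all above control, and the CI arrays lay within its range. Coq5 fell by 0.30 in TNF (SE 0.063, adjusted p = 0.00299, limma) and rose by 0.20 in DEX (SE 0.063, adjusted p = 0.0308). The DEX call was lost when the 2 groups alone were compared and without control replicate 2 or DEX replicate 2 (0.0147 to 0.147 over all alternatives).

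Coq7, the hydroxylase of the last hydroxylation of the ring, lay at 986.7, 921.4 and 1118 in control. It was at 644.3, 647.2 and 754.9 in TNF, at 1179 and 1189.8 in CI and at 765.1, 1013 and 907.1 in DEX. All TNF arrays were below all control arrays, both CI arrays were above them, and the DEX arrays overlapped them over a wide spread. Coq7 fell by 0.55 in TNF (SE 0.095, adjusted p = 0.000566, limma), which was the largest decrease among the 10 genes. Its values in CI (0.23, SE 0.106, adjusted p = 0.159) and DEX (-0.17, SE 0.095, adjusted p = 0.199) did not pass. Both CI arrays being above control was shared by 24.0% of all tested genes.

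Coq4 and Coq9 belong to the same complex. Coq4 is required for coenzyme Q synthesis, and Coq9 is a lipid-binding protein that works with Coq7. Coq4 lay at 523.7, 506.8 and 518.5 in control, 535.8, 503.8 and 525.6 in TNF, 554.3 and 520.3 in CI, and 538.6, 567.9 and 497.0 in DEX. Its groups overlapped in every comparison. The 95% interval of its log2 fold change ran from -0.11 to 0.14 in TNF, from -0.08 to 0.19 in CI and from -0.08 to 0.17 in DEX, intervals that are not adjusted for the number of genes.

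Coq9 lay at 3881, 3664 and 3795 in control, 2853, 2849 and 2935 in TNF, 3459 and 3267 in CI, and 4322, 4709 and 4402 in DEX. The 4 groups did not overlap on this probe set: TNF was lowest, then CI, then control, then DEX. Coq9 fell by 0.39 in TNF (SE 0.054, adjusted p = 7.81e-05, limma) and rose by 0.24 in DEX (SE 0.054, adjusted p = 0.00303), and both calls held in all 21 alternatives. In CI its value of -0.17 did not pass (SE 0.060, adjusted p = 0.0683), though it passed with a pseudocount of 64, after quantile normalization and without DEX replicate 2 (0.0331 to 0.951 over all alternatives).

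Coq10a and Coq10b encode START-domain proteins that bind coenzyme Q and are needed for its function in respiration rather than for its synthesis. Coq10a lay at 520.2, 442.6 and 529.9 in control, at 442.2, 400.0 and 401.3 in TNF, at 332.1 and 415.3 in CI and at 462.6, 449.2 and 494.1 in DEX. The TNF and CI arrays were all below control, in TNF by less than 1 intensity unit for the nearest pair, and the DEX arrays overlapped it. Coq10a fell by 0.40 in CI (SE 0.094, adjusted p = 0.00809, limma) and by 0.25 in TNF (SE 0.084, adjusted p = 0.0398). The CI call was lost without CI replicate 1 and with the mean of all probe sets (0.00357 to 0.191 over all alternatives). The TNF call was lost in 7 of 21 (0.0158 to 0.143): with the mean of all probe sets, after centring each array, with array weights, and without control replicate 1 or 3 or TNF replicate 2 or 3.

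Coq10b moved the other way in CI and had the largest decrease of the set in DEX. It lay at 1021, 1020.0 and 1137 in control, at 888.3, 881.8 and 830.3 in TNF, at 1363 and 1400.3 in CI and at 773.1, 764.8 and 836.8 in DEX. The CI arrays were all above control, and the TNF and DEX arrays all below it. Coq10b rose by 0.38 in CI (SE 0.067, adjusted p = 0.00120, limma), fell by 0.28 in TNF (SE 0.060, adjusted p = 0.00275) and fell by 0.41 in DEX (SE 0.060, adjusted p = 8.56e-05). All 3 calls held in all 21 alternatives.

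**Figure D2:**
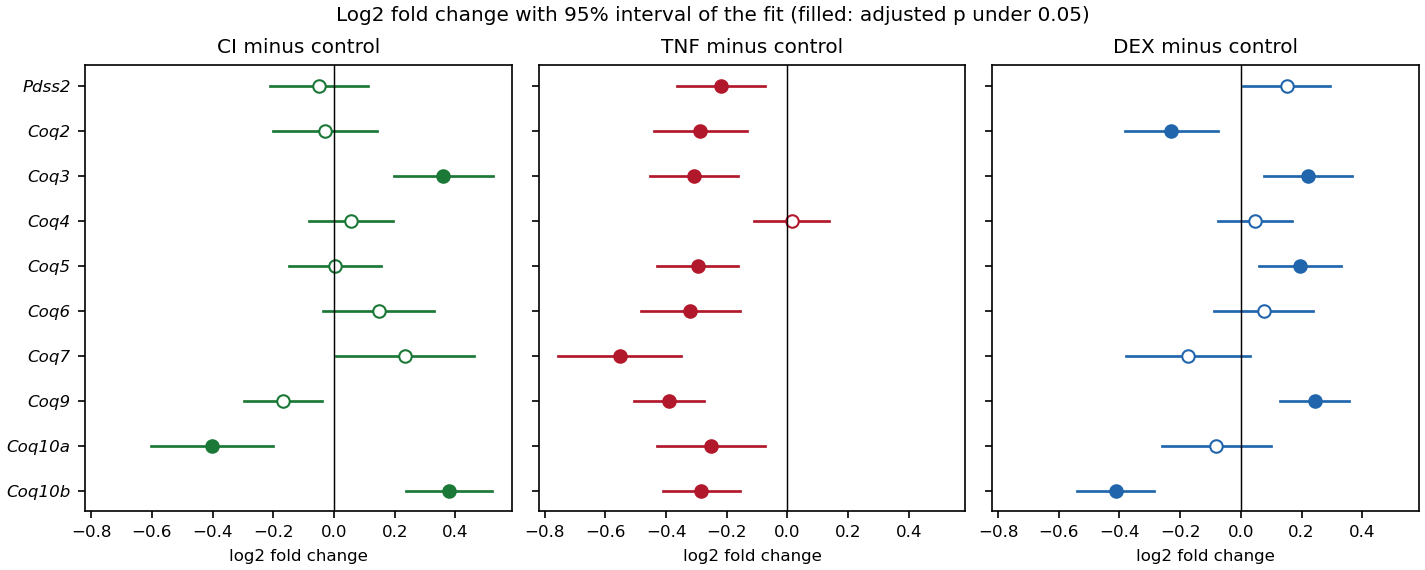
Log2 fold change of each gene from control in CI, TNF and DEX, on the log2(intensity + 16) scale, with the 95% interval of the limma fit, not adjusted for the number of genes; filled points passed at an adjusted p under 0.05. TNF points from -0.55 (Coq7) to -0.22 (Pdss2) are filled and Coq4 is at 0.01, while CI runs from -0.40 (Coq10a) to 0.38 (Coq10b) and DEX from -0.41 (Coq10b) to 0.24 (Coq9).

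The counts in CI and DEX rested on single arrays more than the count in TNF. Without CI replicate 1 only Coq10b passed in CI. In DEX 5 members passed, against 2 without control replicate 2 and 3 without DEX replicate 2 or replicate 3. In TNF 7 to 9 passed when any 1 array was left out. With a single CI array left, its spread is taken from the other groups. Among the DEX arrays replicate 2 was the highest for Pdss2, Coq2, Coq4, Coq5, Coq6, Coq7 and Coq9, and replicate 1 was the lowest for Pdss2, Coq2, Coq3, Coq5, Coq7 and Coq9. Among the TNF arrays replicate 3 was the highest for Pdss2, Coq2, Coq3, Coq5, Coq6, Coq7 and Coq9.

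The treatments were also compared with each other. Against DEX, TNF was lower for 6 members and higher for 0, where 17.9% of all genes were lower and 18.1% higher. These were Coq9 (-0.63, SE 0.054, adjusted p = 2.39e-07, limma), Coq3 (-0.53), Coq5 (-0.49), Coq6 (-0.39), Coq7 (-0.38) and Pdss2 (-0.37), with every TNF array below every DEX array. The same held for Coq10a, which made 7 members, against 26.6% of all genes. Coq2 was at -0.06 (95% interval from -0.21 to 0.09), Coq10a at -0.17 and Coq10b at 0.13 in this comparison, and none of them passed. The number was 6 when any 1 array was left out.

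Against CI, TNF was lower for 7 members and higher for 0, where 17.3% of all genes were lower and 18.8% higher. Coq7 had the largest difference (-0.79, SE 0.106, adjusted p = 3.71e-05, limma), followed by Coq3 and Coq10b (-0.67 and -0.66), Coq6 (-0.47), Coq5 (-0.30), Coq2 (-0.26) and Coq9 (-0.22). Every TNF array was below both CI arrays for these genes and for Pdss2, which did not pass, so for 8 members against 33.5% of all genes. Coq10a was at 0.15 and did not pass (adjusted p = 0.228), but without CI replicate 2 its value was 0.31 and passed, and without CI replicate 1 it was near 0 (adjusted p from 0.0400 to 0.980 over all alternatives). Without CI replicate 1 the count was 4, with Coq2, Coq5 and Coq9 no longer called, and Coq2 was also lost without TNF replicate 1 or replicate 2.

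Between DEX and CI 3 members were higher in DEX and 2 lower, against 17.0% and 16.9% of all genes. The number lower is near its share and the number higher is above it, a difference that was not tested. Coq9 (0.41, SE 0.060, adjusted p = 6.35e-05, limma), Coq10a (0.32) and Coq5 (0.19) were higher in DEX. Coq10b (-0.79, SE 0.067, adjusted p = 2.25e-07) and Coq7 (-0.41, adjusted p = 0.00715) were lower. All DEX arrays were above both CI arrays for 4 members (26.9% of all genes) and below them for 2 (25.8%). The Coq5 call was lost in 11 of 21 alternatives (adjusted p from 0.0120 to 0.280), among them the fit with replicate number as a block (0.0904). The Coq10a value was 0.11 with the mean of its probe sets and did not pass. The count was 3 without CI replicate 1, with Coq5 and Coq10a no longer called.

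More than 1 probe set was present for 6 members. For Coq3, Coq5, Coq9, Coq10a and Coq10b a second one lay above the dim limit, which gave 30 pairs of values over the 6 comparisons. The 2 probe sets had the same sign in 27 pairs. Both passed in 12 pairs, and in all 12 the direction was the same. The 6 comparisons are drawn from 4 groups and share arrays, so the 30 pairs are not independent. How often the probe sets of other genes have the same sign was not computed. Over all probe sets 12.8% passed in CI, 19.0% in TNF and 22.2% in DEX against control, 29.3% between TNF and DEX, 30.0% between TNF and CI and 28.4% between DEX and CI. In a fit over 33778 probe sets, 10 of 15 member probe sets were lower in TNF than in control (8.16% of all), 0 were higher (10.8%), and 13 had every TNF array below control (19.6%). Neither Coq10a probe set passed in TNF in this fit (adjusted p = 0.0574 for the brighter one, limma over probe sets).

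The second probe set of Coq3 lay at 213.1, 200.4 and 235.3 in control, at 166.5, 172.3 and 179.0 in TNF and at 276.1, 262.2 and 274.6 in DEX. Like the brighter one it had all TNF arrays below and all DEX arrays above control (-0.30, adjusted p = 0.00348, and 0.31, adjusted p = 0.00204, limma over probe sets), and its CI value of 0.20 did not pass. The second probe set of Coq5 fell in TNF by 0.38 (adjusted p = 0.00129, limma over probe sets), with 1324, 1139.7 and 1274 in control against 921.8, 997.2 and 944.5. Its DEX value of 0.16 did not pass. Between DEX and CI it was higher in DEX (0.25, adjusted p = 0.0200, limma over probe sets), where the brighter one did not pass in this fit (adjusted p = 0.0615).

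For Coq10b the probe sets differed in TNF. The second one lay at 539.5, 531.2 and 524.7 in control and at 522.0, 486.4 and 485.1 in TNF, a difference of -0.09 that did not pass (adjusted p = 0.315, limma over probe sets). In CI it rose by 0.40 (669.4 and 745.9) and in DEX it fell by 0.41 (370.6, 401.2 and 415.7), as the brighter probe set did. Between TNF and DEX this probe set was higher in TNF (0.32, adjusted p = 0.00128), where the brighter one did not pass. The second probe set of Coq9 was dim, at 55.5 to 104.0 on all arrays, and passed only between TNF and DEX (-0.34, adjusted p = 0.0274). That of Coq10a lay at 62.9 to 81.6 and passed in no comparison, with -0.17 in CI and -0.16 in TNF. Pdss2 and Coq10a each had 2 further probe sets under the dim limit, at 9.30 to 46.6 on all arrays, which were not tested. Averaging all probe sets of a gene, dim ones included, kept the TNF calls of Coq9 and Coq10b against control at smaller values of -0.24 and -0.19. It also kept the calls of Pdss2 between TNF and DEX (-0.14) and of Coq9 between DEX and CI (0.26). The Coq10b difference between TNF and DEX then passed, at 0.22 (adjusted p from 0.00317 to 0.397 over all alternatives). On the array's naming scheme probe sets with _s or _x in their ending can match more than 1 transcript. This holds for the second probe sets of Coq5, Coq10a and Coq10b, not for their brighter ones. It also holds for the probe sets used for Pptc7, Stard7, Acta2, Dlk1 and Cd151, named below.

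**Figure D3:**
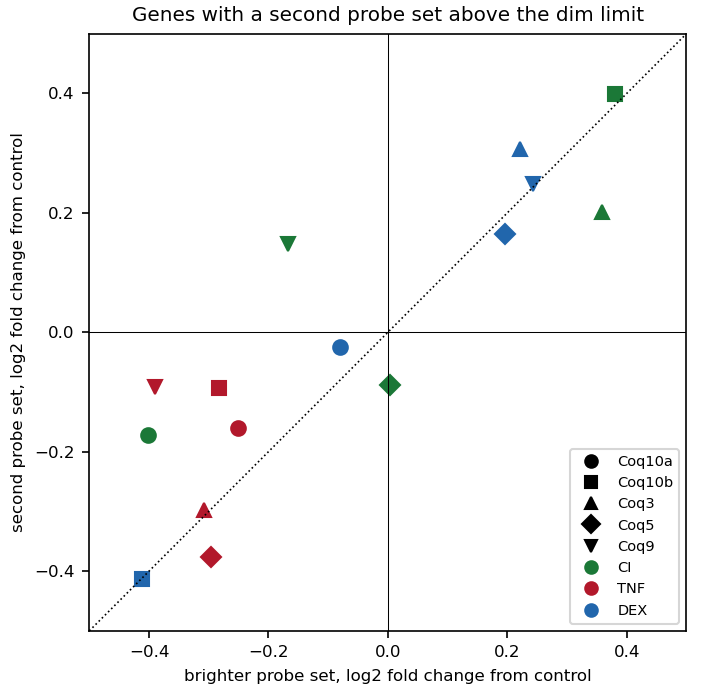
Log2 fold change from control of the brighter probe set (horizontal axis) against that of the second probe set (vertical axis) for the 5 genes with 2 probe sets above the dim limit; shapes are genes, colours are treatments and the dotted line marks equal values. Coq10b in TNF lies off the line at -0.28 and -0.09, and Coq9 in CI lies at -0.17 and 0.15.

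Of the partner genes of the pathway, 4 were measured. Coq8a, an atypical kinase-like ATPase of the coenzyme Q complex, lay at 919.5, 901.2 and 946.9 in control and at 1407, 1471 and 1665 in DEX. In CI it was at 652.0 and 578.7, and in TNF at 795.5, 755.0 and 788.0. All DEX arrays were above and all CI and TNF arrays below control. Coq8a rose by 0.70 in DEX (SE 0.067, adjusted p = 1.14e-06, limma) and fell by 0.57 in CI (adjusted p = 0.000119) and by 0.24 in TNF (adjusted p = 0.0166). The TNF call was lost when its probe sets were averaged and without control replicate 3 or TNF replicate 2 (0.00419 to 0.381 over all alternatives). Averaging its probe sets also gave smaller values of -0.26 in CI and 0.47 in DEX, both still past the threshold. Its paralog Coq8b did not pass in any of them (-0.07 in CI, 0.02 in TNF, 0.01 in DEX). Pptc7, a mitochondrial phosphatase, and Stard7, a lipid transfer protein that takes part in coenzyme Q transport, rose in DEX by 0.34 and 0.29. Stard7 fell by 0.16 in TNF (adjusted p = 0.0488), a call lost in 12 of 21 alternatives (0.0155 to 0.170).

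The mevalonate pathway supplies the prenyl units of the side chain. Of 7 genes tested, 6 fell in TNF (median -0.43) and 6 fell in DEX (median -1.44), with 0 higher in each. Over all tested genes 11.2% fell and 13.9% rose in TNF, 13.6% fell in DEX and 8.37% rose in CI. Fdps, the synthase of farnesyl diphosphate, lay at 8639, 8368 and 8772 in control, 5091, 4976 and 5731 in TNF and 2642, 2582 and 2915 in DEX. It fell by 0.71 in TNF (adjusted p = 2.49e-06, limma) and fell by 1.66 in DEX (adjusted p = 1.36e-10). When the probe sets of Fdps were averaged both calls held at smaller values of -0.36 and -0.85. In CI 1 of the 7 genes rose, Fdps (0.28), and it did not pass without control replicate 2, without CI replicate 1, or when its probe sets were averaged. Of 4 genes of tyrosine use, Hpd (-0.31) and Hpdl (-0.21) fell and Got2 (0.26) rose in TNF, and 0 passed in DEX (limma; the smallest adjusted p was 0.0701). Hpdl did not pass in 6 and Got2 in 1 of the alternatives in TNF. Got2 also rose in CI (0.24, adjusted p = 0.0277, limma), a call lost in 5 of 21 alternatives. Hpdl was dim, at 47.3 to 79.3 on all arrays.

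Of 13 dehydrogenase genes whose products pass electrons to coenzyme Q, or reduce it outside the respiratory chain, 8 fell and 1 rose in TNF (median -0.21). Etfdh, which links fatty acid oxidation to coenzyme Q, went from 2038, 2029 and 2129.9 to 1450.0, 1322 and 1484 and fell by 0.54 (adjusted p = 9.61e-06, limma). Nqo1, a cytosolic quinone reductase, rose from 327.2, 314.9 and 328.7 to 640.0, 616.4 and 609.3 (0.91, adjusted p = 9.23e-08). In CI 4 fell and 1 rose, among them Gpd2, the mitochondrial glycerol phosphate dehydrogenase (-0.71), Prodh, proline dehydrogenase (-0.49, not past the threshold without CI replicate 2), and Sqor, sulfide oxidoreductase (-0.42). In DEX 3 rose and 0 fell, with Prodh going from 397.2, 366.5 and 354.8 to 851.8, 1134 and 1013 (1.38, adjusted p = 2.1e-08) and Aifm2, which reduces coenzyme Q outside mitochondria, rising by 0.37. Over all tested genes 11.2% fell and 13.9% rose in TNF, 8.86% and 8.37% in CI, and 13.6% and 14.0% in DEX. The numbers of dehydrogenase genes that rose in TNF and in CI are not above these shares.

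Genes of the respiratory complexes on either side of coenzyme Q also fell in TNF. Of 14 complex I subunits 10 fell and 0 rose (median -0.24), and of 9 complex III subunits 9 fell (median -0.38). Of 9 genes of general mitochondrial proteins 4 fell and 0 rose (median -0.14), and Cs, citrate synthase, fell by 0.48 (adjusted p = 3.71e-05, limma). Tfam and Vdac2 of this list went the other way, though neither passed. Every TNF array of Tfam (817.6 to 855.7) was above every control array (734.8 to 784.0). The same held for Vdac2 (7554 to 7727 in TNF, 7181 to 7462 in control). The coenzyme Q genes had 9 of 10 lower and a median of -0.29. In DEX 3 of the 14, 4 of the 9 and 2 of the 9 rose, 1 complex III subunit fell, and the medians were 0.07, 0.14 and 0.06. In CI the medians were 0.02, 0.10 and 0.15, with 1, 1 and 2 genes higher and 1 complex I subunit lower. Over all tested genes 11.2% fell and 13.9% rose in TNF, 13.6% and 14.0% in DEX, and 8.86% and 8.37% in CI. The complex I numbers in CI are near these shares, as are the numbers of complex III subunits that rose in CI and fell in DEX. Whether the coenzyme Q genes differ from these lists was not tested.

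**Figure D4:**
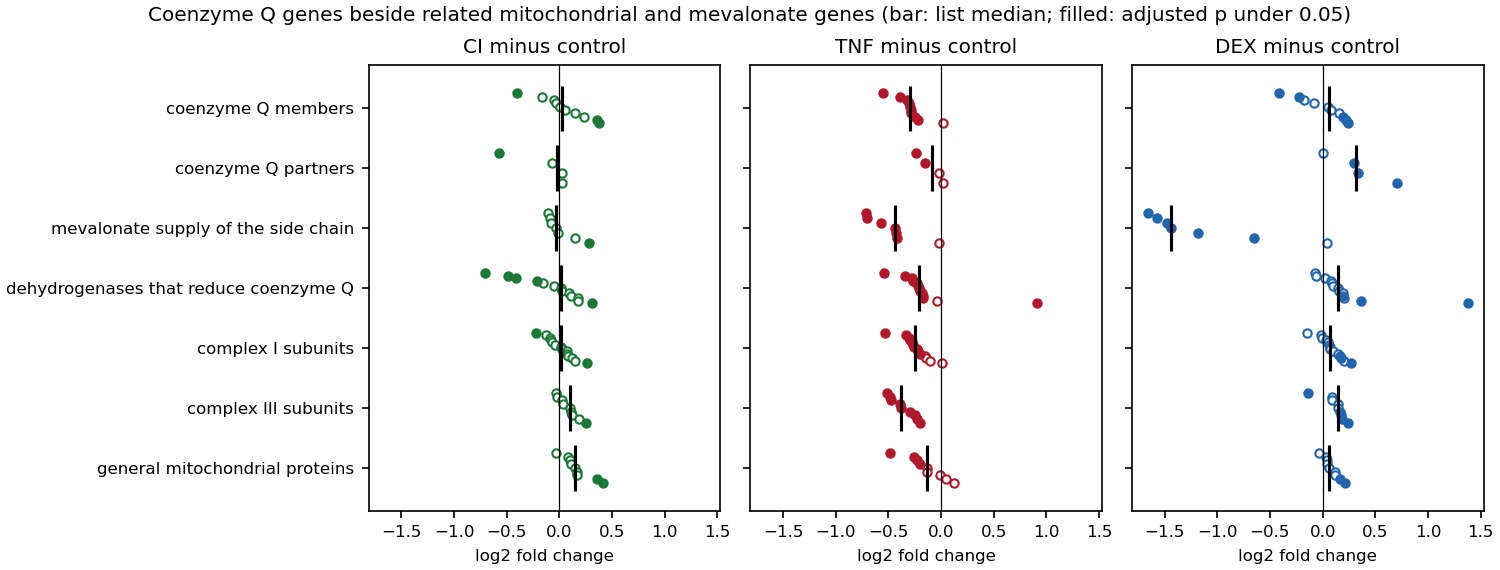
Log2 fold change from control of single genes (points) in 7 lists, with filled points at an adjusted p under 0.05 and a black bar at the list median, for CI, TNF and DEX. In TNF the medians of all 7 lists lie below 0, from -0.43 (mevalonate) to -0.09 (coenzyme Q partners), and in DEX the mevalonate median is at -1.44 while the other 6 lie from 0.06 to 0.31.

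Markers of the cell state moved in the same arrays. The summed intensity of 11 adipocyte markers was 113841 to 116710 in TNF against 137276 to 139387 in control, and 6 of them were lower in TNF, among them Retn (-0.83) and Cidec (-0.64). That of 10 preadipocyte and fibroblast markers was 70372 to 72285 in TNF against 59802 to 65890, with 5 higher, including Acta2 (0.94) and S100a4 (0.79), and 0 lower. The means of Dlk1, Thy1, Col1a1 and Col3a1 were lower in TNF than in control, and none of these passed. Every TNF array of Col3a1 (14484 to 15411) was below every control array (15818 to 16828). The sum of these 10 markers was 52824 to 55105 in CI, with 5 of them lower, and 41761 to 47913 in DEX, with 6 lower and 2 higher. The adipocyte sum was 134072 to 136181 in CI (1 higher, 1 lower) and 133632 to 143761 in DEX (2 higher, 4 lower). For 7 macrophage and leukocyte markers the sum was 4179 to 4423 in control, 3693 to 3951 in CI (1 higher, 1 lower), 4958 to 5208 in TNF (2 higher) and 2655 to 3120 in DEX (2 lower). Lyz2 made up much of this sum, with a mean of 2325 in control and 2948 in TNF. The means of Adgre1 and Cd3e were lower in TNF than in control, and neither passed. Every TNF array of Cd3e (293.2 to 300.4) was below every control array (305.6 to 341.6). Over all tested genes 8.37% were higher and 8.86% lower in CI, 13.9% and 11.2% in TNF, and 14.0% and 13.6% in DEX. The adipocyte marker numbers in CI are near these shares, and with 7 markers the macrophage and leukocyte numbers in CI cannot be told from them. No marker was at 0, and Ptprc and Itgam, defining genes of leukocytes, were under the dim limit. The part of these shifts in the coenzyme Q results was not tested.

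The genes nearest to Coq7 in their 4 group means, by the distance of log2 values centred per gene, were Cav1, Slc36a2, Xrcc3, Cd151 and C1qtnf12, at distances of 0.054 to 0.076. These distances are below the SE of the Coq7 fold changes from control (0.095 to 0.106), so which genes are nearest is uncertain. The ranking was not repeated in the alternative analyses. Cav1, the main protein of caveolae, was at 0.21 in CI, -0.56 in TNF and -0.12 in DEX, against 0.23, -0.55 and -0.17 for Coq7. The nearest members were Coq6 and Coq3 (0.291 and 0.293), at ranks 247 and 249 of the tested genes, followed by Coq2 (727) and Coq10b (750). Coq9, the partner of Coq7, was at 0.594 and rank 8524, and Coq10a was the farthest member at 0.699.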

How the data were processed

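The deposited values are probe set intensities on a linear scale, 45101 per array on 11 arrays, and 0 value columns were left unmapped. Their background correction, summarisation and normalization are not given in the sources used here. Between arrays the quartiles of the log2 values lay within 0.0763, under the limit of 0.1 for further normalization, so none was applied. Intensities were used as log2(intensity + 16), which understates changes of dim genes. Affymetrix's own 64 controls were dropped, and a gene was named only where the platform annotation gave 1 symbol (34945 probe sets; 932 had several, 9160 none). Its probe set with the highest mean log2 value was used, and genes below 51.6 intensity units, percentile 25 of the non-control probe sets, were left out, which left 15625 of 18193. Groups and replicate numbers came from the sample titles. All 6 comparisons came from 1 limma 3.58.1 fit (R 4.3.3, eBayes, two-sided) on 11 arrays with group means, with 7 residual and 7.62 prior degrees of freedom; a second fit covered 33778 probe sets. The test was checked on simulated data. Errors are standard errors of the fit. The number of arrays limits the precision.

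The members and lists were chosen with earlier results of these data known. The text names all 10 members, up to 3 genes with the smallest adjusted p per other list and comparison with control, all measured partner genes, and the 5 genes nearest to Coq7. It also names the preadipocyte and fibroblast markers and the macrophage and leukocyte markers with lower means in TNF. Tfam and Vdac2 are named as general mitochondrial genes with every TNF array above every control array. RefSeq promoter windows matched 9 members by symbol, cut to the 250 bases before the start. Alternatives covered the probe set rule, pseudocounts of 1 and 64, no dim filter or one at the median, centring, quantile normalization, the 2 groups alone, array weights, a replicate block and leaving out each array. Those for genes of the other lists were added after seeing the data.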

Additional observations from a re-analysis of the deposited data

How the results depend on the processing

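Over 21 alternatives, 1203 of 1260 values of the 10 genes in 6 comparisons kept their side of the threshold, 44 lost a call and 13 gained one; 0 called values changed sign, and 18 values that did not pass did so. Of the 1949 values of other named genes, 95 lost and 16 gained a call. The number of genes called when 1 array was left out ran from 1 to 4 in CI against control (3 with all arrays), 7 to 9 in TNF (9), 2 to 5 in DEX (5), 6 to 6 for TNF against DEX (6), 4 to 8 for TNF against CI (7) and 3 to 6 for DEX against CI (5). For probe sets it ran from 2 to 5 (4), 7 to 10 (10), 4 to 8 (7), 9 to 10 (10), 6 to 11 (10) and 3 to 7 (6) in the same order. The lowest numbers in CI came without CI replicate 1, and those in DEX against control without control replicate 2, or for probe sets also without DEX replicate 3. The alternatives that kept every array moved no count by over 1.5 times. Whether the shared replicate numbers pair the arrays is not settled. Of 15 same-numbered pairs 6 had correlated deviations above 0.1 (from -0.285 to 0.341), and the 30 other pairs ran from -0.346 to 0.285. The highest same-numbered value was between control and TNF replicate 3, and the lowest between CI and DEX replicate 2. In CI the deviations of the 2 arrays mirror each other. With a replicate block 3, 9, 5, 6, 7 and 4 genes were called, against 3, 9, 5, 6, 7 and 5. Averaging the probe sets of a gene moved called values of other named genes by over 1.5 times with the call kept for Sqor in CI (-0.20), Etfdh (-0.33) and Acta2 (0.35) in TNF, and Stard7 in DEX (0.17). The 2 or 3 arrays a group limit the precision.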
